A study of Mus musculus and Acomys cahirinus with 2 samples.

Results

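T cells of adult ear skin were studied in the spiny mouse Acomys cahirinus, which is known for regrowing ear tissue after injury, and in the house mouse, Mus musculus. They were selected from all barcodes of both libraries as those with at least 500 unique molecular identifiers (UMIs, which mark captured transcripts), at least 200 genes, at least 2 UMIs in sum of Cd3d, Cd3e and Cd3g, and less than 2% of UMIs on Krt10, a keratin of the upper epidermis. In Mus, mitochondrial genes could hold at most 20% of the UMIs, a limit that could not be set in Acomys, whose gene list holds no mitochondrial gene. This gave 198 T cells among 28312 passing barcodes, 127 of them in Acomys and 71 in Mus. The study has 1 Acomys and 1 Mus library of adult skin made by droplet sequencing of the 3' ends of transcripts. Both are labelled day 0, and the series text calls the ears injured. The number of animals, their sex, strain and genotype are not given in the sources used here. With 1 library per species no test was possible, and species, animal, library and gene annotation cannot be told apart. Values in parentheses that run between 2 bounds are exact 95% intervals, which hold counting error alone.

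The T cell receptor is either an alpha-beta or a gamma-delta pair, held at the membrane by the CD3 proteins that the selection used. Alpha-beta T cells mostly carry the coreceptor CD4, of helper and regulatory cells, or CD8, of cytotoxic cells, which kill with granzymes and perforin. Mouse epidermis is known for a dense net of gamma-delta T cells with an invariant receptor, the dendritic epidermal T cells, while other gamma-delta T cells of mouse skin make interleukin-17.

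The libraries held 71042559 UMIs in Acomys and 130039670 UMIs in Mus. The T cells had a median of 1920 UMIs in Acomys, between 507 and 9698, and of 2841 UMIs in Mus, between 511 and 39092. Their median number of genes was 891 in Acomys and 1356 in Mus. Ratios between the species use the 15710 gene symbols in both lists, which held 66.0% of the T cell UMIs in Acomys and 62.6% in Mus. The Acomys list holds 8324 names that are identifiers alone, and it has no symbol for the gamma constant genes or the beta constant genes of the receptor. A gene symbol in both lists may also be captured to a different extent by the annotation of each species, so the ratio in all other passing barcodes is given beside the ratio in T cells where it bears on it. Other barcodes can hold T cells that the selection left out, and free RNA of T cells. For genes largely limited to T cells, the ratio there is thus no separate measure.

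T cells made up 0.979% of passing barcodes in Acomys (0.817 to 1.16) and 0.463% in Mus (0.362 to 0.583). The share depended on depth in both libraries. Among barcodes of 500 to 999 UMIs it was 0.456% in Acomys and 0.254% in Mus, and among those of 1000 to 1999 UMIs 2.70% in Acomys (1.91 to 3.71) and 0.912% in Mus (0.472 to 1.59). Barcodes of 2000 to 4999 UMIs held 2.41% T cells in Acomys (1.77 to 3.19) and 2.18% in Mus (1.45 to 3.13), so in that range the 2 intervals largely overlapped. From 5000 UMIs on, the shares were 0.427% in Acomys and 0.234% in Mus. The denominators hold different mixtures of depth, with 3513 of the 12970 passing Acomys barcodes at 5000 UMIs or more, against 6841 of 15342 in Mus. No barcode sequence was a T cell in both libraries, and 1 Acomys T cell and 0 Mus T cells had a barcode that also passed in the other library.

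The selection genes, given as a description, were spread differently over the cells of the species. Cd3d had 749 UMIs in 119 Acomys T cells and 228 UMIs in 57 Mus T cells. Cd3e had 538 UMIs in 118 Acomys and 248 UMIs in 53 Mus cells, whereas Cd3g had 584 UMIs in 118 Acomys and 941 UMIs in 66 Mus cells. In the mouse genome (build mm10, GENCODE annotation of GRCm38) these genes lie close together on chromosome 9, Cd3g at 44969572 to 44980431, Cd3d at 44981786 to 44987339 and Cd3e at 44998740 to 45009627.

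How well the selection holds was read from 6 T cell and lymphocyte genes it did not use, namely Ptprcap, Lat, Lck, Nkg7, Ctsw and Cd52. At least 1 of them had a UMI in 103 of 106 Acomys and in 49 of 49 Mus barcodes with 6 or more Cd3 UMIs, which is 97.2% and 100%. Just inside the limit, with exactly 2 Cd3 UMIs, it was 3 of 9 Acomys barcodes (33.3%) and 4 of 17 Mus barcodes (23.5%), with median depths of 7612 and 11718 UMIs. Just outside it, with 1 Cd3 UMI, it was 6.05% of 248 Acomys and 7.65% of 353 Mus barcodes. Without a Cd3 UMI the shares were 3.13% in Acomys and 4.74% in Mus. The Krt10 limit left out 26 Acomys and 4 Mus barcodes with at least 2 Cd3 UMIs. Of these, 10 Acomys and 0 Mus barcodes had a Krt10 share between 2 and 2.5%, and among the members 16 in Acomys and 4 in Mus lay between 1.5 and 2%.

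A small number of deep barcodes weighed on the UMI sums. In Acomys 15 T cells over 5000 UMIs held 35.1% of all T cell UMIs but 6.79% of the Cd3 UMIs. In Mus 16 such cells held 71.7% of the UMIs but 9.95% of the Cd3 UMIs, and 10 of them had just 2 Cd3 UMIs. Keratinocyte markers took a median of 2.17% of UMIs in the deep Acomys cells and 4.66% in the deep Mus cells, against 1.71% in Acomys and 1.60% in Mus among T cells of at most 5000 UMIs. Doublets of a T cell and a keratinocyte were not removed, and their part in the sums was not tested. For this reason ratios between the species are also given for the 112 Acomys and 55 Mus T cells of at most 5000 UMIs, where a printed ratio moves by over 1.5 times. This limit was chosen after the data were seen.

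**Figure D1:**
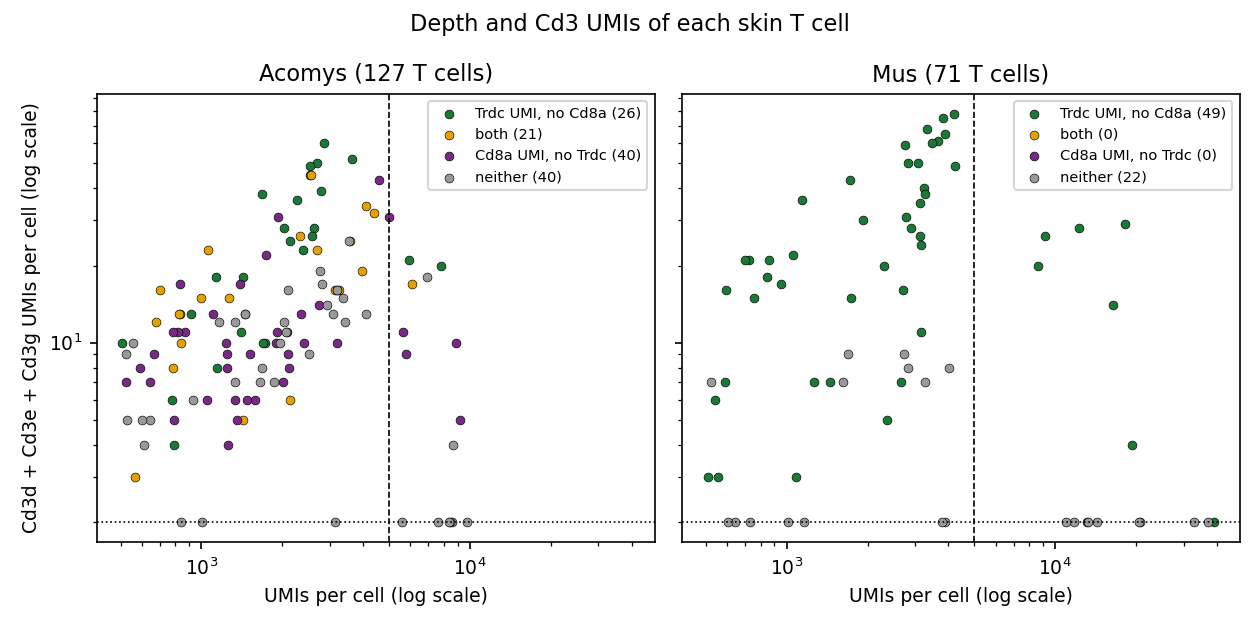
Each point is a skin T cell of Acomys (left) or Mus (right), with its total UMIs on the x axis and its summed Cd3d, Cd3e and Cd3g UMIs on the y axis, both on log scales. Colours give whether the cell had a UMI of Trdc, of Cd8a, of both or of neither, the dashed line marks 5000 UMIs and the dotted line the minimum of 2 Cd3 UMIs, on which 10 of the 16 deep Mus cells lie.

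Within each library the T cells were set against all other passing barcodes of that library, in CPM, which scales a UMI count to the total, over all of its genes without the mitochondrial ones. In Acomys 627 of 3551 genes with at least 10 UMIs in T cells were at least 2-fold higher in T cells, which is 17.7%, and in Mus 467 of 4575, which is 10.2%. Of the genes with a shared symbol, 133 passed in both species, 24.8% of the 536 that passed in Acomys and 34.4% of the 387 that passed in Mus.

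In Acomys the leading genes were those of cytotoxic and gamma-delta cells. Cd226, an activating receptor of T and natural killer cells, had 38 UMIs in 31 T cells and was 5708-fold higher than in the other barcodes (964 to 231310), which held 1 UMI. Ccl5, a chemokine that attracts T cells and monocytes, was 699-fold higher (565 to 873), Xcl1, a chemokine for cross-presenting dendritic cells, 700-fold (531 to 937) and the granzyme gene Gzma 638-fold (527 to 778). Cd8a, the alpha chain of CD8, was 475-fold higher (380 to 599) and Trdc, the constant part of the delta receptor chain, 397-fold (283 to 566). Cd52, Il17f, Skap1, Ctsw, Nkg7, 5830411N06Rik, Klrg1, Klrd1 and Tnfrsf4 completed the 15 leading names, at 352-fold or more each.

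In Mus the leading genes were those of gamma-delta cells with natural killer receptors. Trdc was 864-fold higher in T cells than in the other barcodes (727 to 1031), Tcrg-C1, a constant gene of the gamma chain, 727-fold (560 to 952) and Cd7, a membrane protein of T and natural killer cells, 677-fold (593 to 775). Cxcr6, a receptor of cells that stay in tissue, was 858-fold higher (538 to 1417) and Nkg7, a granule membrane protein, 617-fold (517 to 740). The killer cell receptor genes Kir3dl2, Kir3dl1, Klrk1 and Klrd1, and Xcl1, Ctsw, Lat, Ptprcap, Cd247 and Trac, completed the 15 leading names. Nkg7, Ctsw, Klrd1, Xcl1 and Trdc led in both libraries.

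Cells with a UMI of Trdc were a minority in Acomys and the majority in Mus. They numbered 47 of 127 in Acomys (37.0%, 28.6 to 46.0) and 49 of 71 in Mus (69.0%, 56.9 to 79.5). Thinned to 500 UMIs per cell, the expected shares were 20.5% in Acomys and 52.2% in Mus. In barcodes with at least 2% Krt10, used as background, 0.366% of 6016 Acomys and 1.03% of 3888 Mus barcodes had a Trdc UMI, at median depths of 618 and 1160.5 UMIs. Trdc lies at 54142851 to 54148868 on mouse chromosome 14 and Tcrg-C1 at 19214103 to 19217024 on chromosome 13 (mm10).

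Most Mus Trdc cells shared a set of receptor and effector genes. Of the 49, 44 also had a UMI of Tcrg-C1, 46 of Cd7, 42 of Nkg7, 38 of Fcer1g, a signalling adaptor of activating receptors, 35 of Cxcr6 and 27 of the integrin gene Itgae, whose product binds E-cadherin of epithelium. Cd7 had 797 UMIs in these cells and 8 UMIs in the 22 Mus T cells without Trdc. Tcrg-C1 was in 45 Mus T cells, more than the 12 with Tcrg-C4 and the 6 with Tcrg-C2. Trbc1, a beta chain constant gene, had a UMI in 22 Mus T cells, 19 of them with Trdc, against 0.952% of Krt10-high barcodes. Trac, the constant gene of the alpha chain, had a UMI in 8 Mus T cells, and 5 of these had no Trdc UMI. Those 5 cells had 7 to 9 Cd3 UMIs each, 4 of them had UMIs of Klf2, a factor of recirculating T cells, and all 5 had UMIs of Il7r, the interleukin-7 receptor. The 22 Mus cells without Trdc had a median of just 2 Cd3 UMIs. Keratinocyte genes led them, among them Wfdc21 with 190 UMIs and Lor, a protein of the cornified cell envelope, with 983 UMIs, so this group is not read as a T cell subset.

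The Acomys T cells with a UMI of Trdc or Cd8a were of several kinds. Classes by a UMI of Trdc and of Cd8a were chosen after their values were seen, as were the genes named for them. There were 26 cells with Trdc and without Cd8a (20.5%), 21 with both (16.5%), 40 with Cd8a and without Trdc (31.5%) and 40 with neither (31.5%). Their median Cd3 UMIs were 22, 16, 10 and 9, and their median depths 2081.5, 2136, 1498 and 2309 UMIs. The 9 Acomys cells with exactly 2 Cd3 UMIs had no UMI of Trdc or Cd8a and so lie in the class with neither. Of them 6 had over 5000 UMIs. Keratinocyte genes were among the leading genes of that class, with Krt5 at 560 UMIs against 352 UMIs in the other 87 cells. The class with neither is thus not read as a T cell subset. A cell can miss a gene by its depth, which lowers the class with both and raises the class with neither. Free or doublet RNA can add a gene to a cell, so these counts are not strict bounds. The part of either was not tested.

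**Figure D2:**
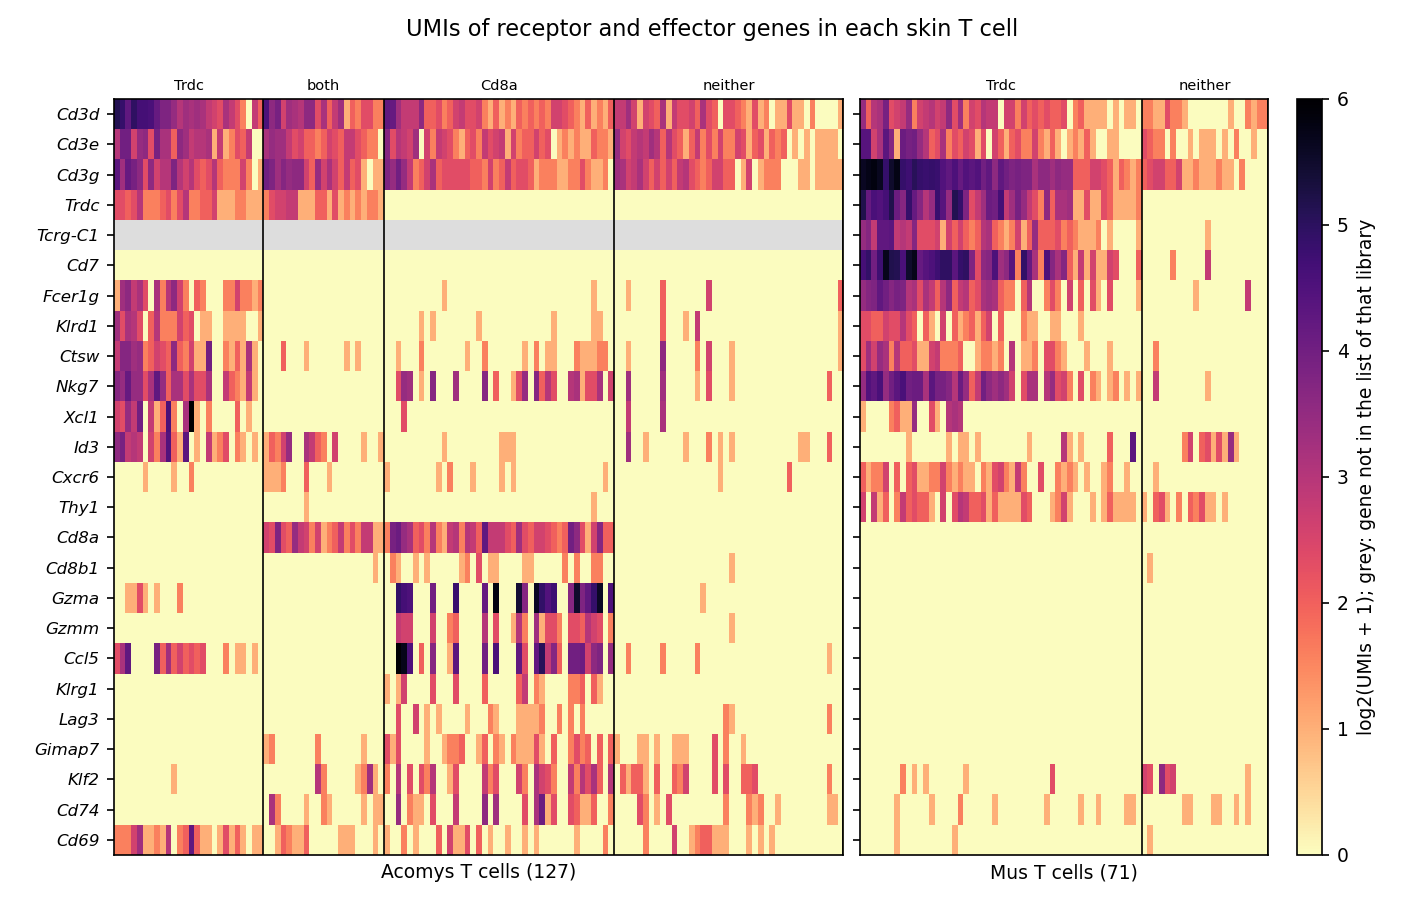
Each column is a T cell of Acomys (left, 127 cells) or Mus (right, 71 cells) and each row a gene, with colour giving log2 of UMIs plus 1 and grey marking a gene outside the list of that library. Cells are grouped by UMIs of Trdc and Cd8a and ordered by Cd3 UMIs within a group, and in Acomys Nkg7, Gzma, Ccl5 and Xcl1 have UMIs in the Trdc or the Cd8a group and none in the 21 cells with both.

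The 26 Acomys cells with Trdc alone carried natural killer receptor genes. Xcl1 had 271 UMIs in 16 of them and 4 UMIs in 1 of the 40 Cd8a cells, a ratio of 103 (39.7 to 380). Of these Xcl1 UMIs, 181 were in 1 cell. Fcer1g had 95 UMIs in 21 Trdc cells and 2 UMIs in 2 Cd8a cells, a ratio of 72.1 (19.4 to 604). Klrd1, a receptor subunit of natural killer cells, had 67 UMIs in 20 Trdc cells and 6 UMIs in 6 Cd8a cells, a ratio of 17 (7.4 to 47.9). Id3, a transcriptional regulator, stood at 121 UMIs in 20 Trdc cells and 4 UMIs in 4 Cd8a cells. Ctsw, the gene of a granule cathepsin, stood at 120 UMIs in 23 Trdc cells and 20 UMIs in 14 Cd8a cells. Cd69, a protein that keeps T cells in tissue, had UMIs in 23 of the 26 cells. The hair follicle keratin genes Krt79 (136 against 21 UMIs) and Krt17 (357 against 89 UMIs) were also higher in the Trdc cells than in the Cd8a cells. Whether they came with the cells or as free or doublet RNA was not tested.

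The 40 Acomys cells with Cd8a alone carried granzyme genes, but not every gene of cytotoxic cells was highest in them. The perforin gene Prf1 had 19 UMIs in 13 of the 26 Trdc cells and 9 UMIs in 9 of the other 101 Acomys T cells. Nkg7 stood at 2806 CPM in the Trdc cells and 1545 CPM in the Cd8a cells. Gzma had 550 UMIs in 20 of them and 10 UMIs in 6 of the Trdc cells, so it was 36.2-fold higher (19.5 to 75.9). Gzmm, another granzyme, had 96 UMIs in 23 Cd8a cells and no UMI in the Trdc cells, at least 21.1-fold higher. Ccl5 had 394 UMIs in 23 Cd8a cells and 83 UMIs in 16 Trdc cells. Klrg1, an inhibitory receptor of differentiated effector cells, had 41 UMIs in 15 Cd8a cells, Lag3, an inhibitory receptor that binds MHC class II, 27 UMIs in 15 and Cd8b1, the beta chain of CD8, 24 UMIs in 15, and none of the 3 had a UMI in the Trdc cells. Klf2 had 106 UMIs in 24 Cd8a cells and 1 UMI in the Trdc cells. Cd74, the invariant chain of MHC class II, had 91 UMIs in 19 Cd8a cells and no UMI in the Trdc cells. Gzma was not spread over all Cd8a cells, since 20 of the 40 had no UMI of it, and in the 27 Acomys T cells with Gzma its median was 21 UMIs.

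The 21 Acomys cells with both Trdc and Cd8a differed from either class. They had no UMI of Nkg7, Gzma, Gzmm, Ccl5, Xcl1, Fcer1g, Klrd1, Klrg1 or Cx3cr1, of which Nkg7 was in 23 of the 26 Trdc cells and 22 of the 40 Cd8a cells. The gene 5830411N06Rik, a scavenger receptor gene of mouse gamma-delta T cells, had 23 UMIs in 11 of them and 5 UMIs in 4 of the other 106 Acomys T cells, so it was 26.7-fold higher (9.92 to 89.8). Genes of interleukin-17 cells had UMIs in some of them. Ccr6, a chemokine receptor, was in 7 of the 21, against 0 of the Trdc and 4 of the Cd8a cells, and Il23r, the interleukin-23 receptor, was in 5, against 2 and 1. Il17f was in 3 of the 21, against 0 and 1. Il7r was in 9 of the 21, against 1 of the Trdc and 5 of the Cd8a cells. Itgae was in 9 of the 21, against 4 and 5, and Cd40lg, the ligand of CD40, in 9, against 0 and 6. Just 1 of the 21 cells had over 5000 UMIs.

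Several genes owed their level to single cells. In Acomys 1 cell of 5910 UMIs, with 21 Cd3 and 2 Trdc UMIs, held 181 of the 289 Xcl1 UMIs, 85 of the 88 UMIs of the chemokine gene Ccl1, 32 of 53 of Ccl4 and 14 of 18 of Ccl3. Another, of 1107 UMIs with 13 Cd3 and 2 Cd8a UMIs, held 54 of the 62 Il17f UMIs. A cell of 4115 UMIs with 13 Cd3 UMIs and neither Trdc nor Cd8a held 65 of the 91 UMIs of Tnfrsf4, the costimulatory receptor OX40. The levels of these genes in Acomys thus describe few cells. Gzma, by contrast, had at most 55 UMIs in a cell, 9.80% of its total.

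CD4 and regulatory T cell genes were rare in both libraries. Cd4 had a UMI in 0 of 127 Acomys T cells and in 2 of 71 Mus T cells. A count of 0 allows a share of cells with a UMI of up to 2.86% in Acomys, by the exact interval. Foxp3, the factor of regulatory T cells, was in 0 Acomys and 1 Mus T cell. In all barcodes of the library together Cd4 had 2 UMIs in Acomys and 7 UMIs in Mus, and Trac had 8 UMIs in Acomys and 31 UMIs in Mus, so in Acomys both genes were close to absent from the whole library, and their counts do not show how many cells express them. Cd8a had a UMI in 61 Acomys T cells (48.0%, 39.1 to 57.1) and in 0 Mus T cells, which allows a share of cells with a UMI of up to 5.06%. Thinned to 500 UMIs the Acomys share was 35.7%, and 0.781% of Krt10-high Acomys barcodes had a Cd8a UMI. The whole Acomys library held 689 UMIs of Cd8a and the whole Mus library 0, so the Mus count does not show how many cells express it. Cd8b1 was in 17 Acomys T cells and in 1 Mus T cell.

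**Figure D3:**
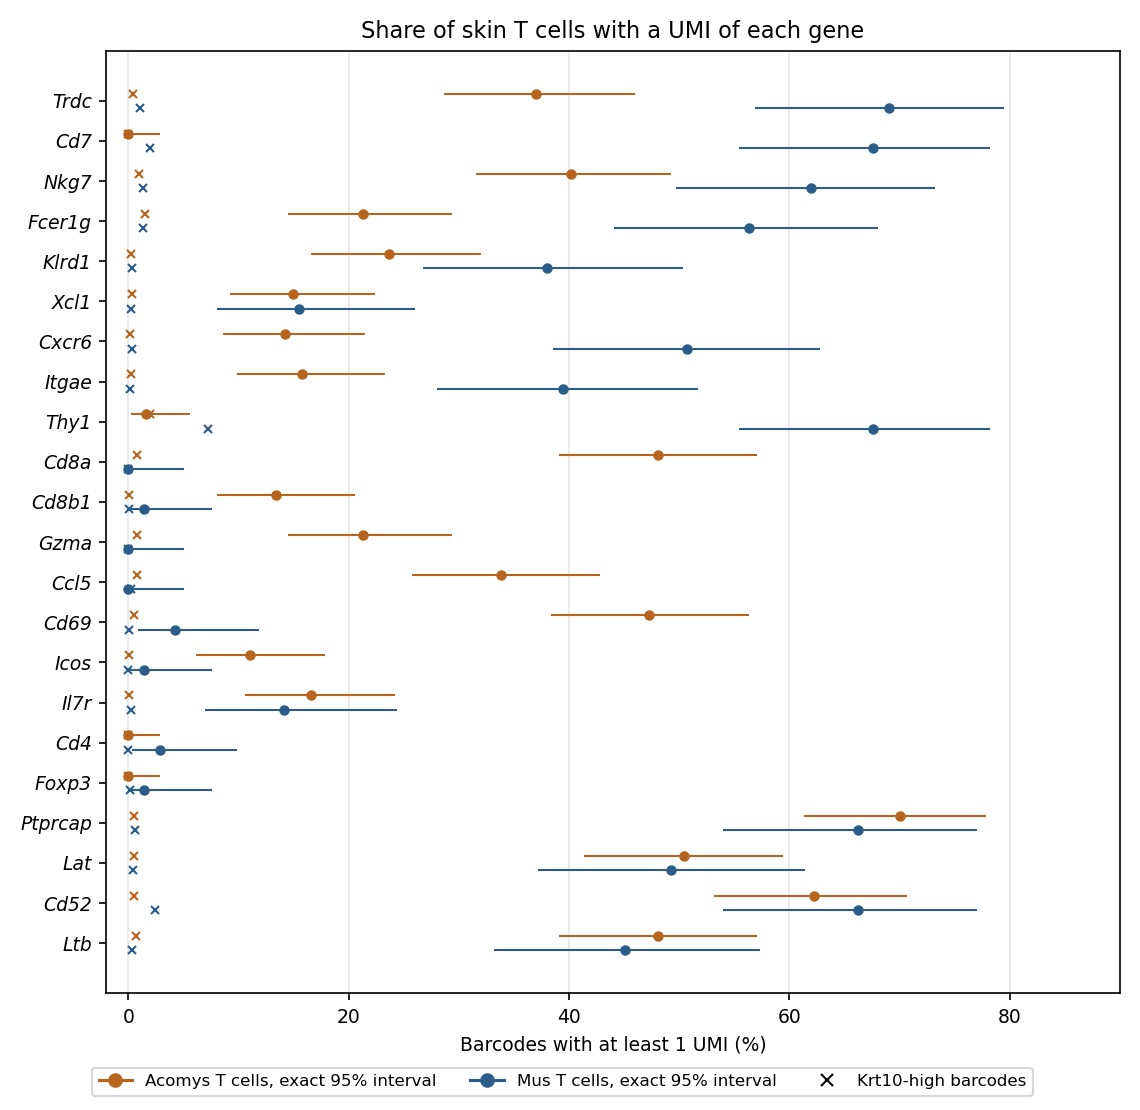
Points give the share of T cells with at least 1 UMI of each gene in percent, with exact 95% intervals, for Acomys (127 cells, upper of each pair) and Mus (71 cells, lower), and crosses the same share in Krt10-high barcodes of that library. Cd8a, Gzma, Ccl5 and Cd69 are in 21.3 to 48.0% of Acomys and 0 to 4.23% of Mus cells, Cd7 and Thy1 are in at most 1.57% of Acomys and in 67.6% of Mus cells, and Ptprcap, Lat, Cd52 and Ltb overlap.

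Between the species, 682 of the 3420 genes with 20 or more UMIs in the T cells of both libraries together passed 2-fold upwards in Acomys, which is 19.9%, and 828 passed it downwards, which is 24.2%. The median log2 ratio, Acomys over Mus, was 0.03. Among T cells of at most 5000 UMIs, 416 of 1841 genes were at least 2-fold higher (22.6%) and 303 lower (16.5%). The 20 leading genes in the next 2 paragraphs had to be at least 2-fold above the other barcodes in the library where they were higher, a condition that the list members named after them did not have to meet.

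The genes with the highest ratios in Acomys included the granzymes Gzma and Gzmm, Cd8a and several chemokines. Gzma stood at 2636 CPM in Acomys T cells and had no UMI in Mus T cells, a difference of at least 228-fold, or at least 97.4-fold among cells of at most 5000 UMIs. Ccl5 (at least 197-fold), Cd8a (at least 133-fold), Gzmm (at least 39.5-fold) and Ccl4 (at least 21.6-fold) also had no UMI in Mus T cells. Among cells of at most 5000 UMIs these bounds were 84.8-fold for Ccl5, 56.8-fold for Cd8a, 16.8-fold for Gzmm and 3.84-fold for Ccl4. Gimap7, a GTPase of lymphocytes (at least 30.5-fold, or 13.3-fold under the limit), Ifi27l2a, an interferon-induced gene (at least 22.8-fold, or 10.2-fold), and Ccl1, whose UMIs were nearly all in 1 cell, had no UMI in Mus T cells either. Ccl5 and Gzmm had 93 and 118 UMIs in other Mus barcodes, whereas Gimap7 and Cd8a had none in the whole Mus library. Gzma had 1 UMI in other Mus barcodes and 10 UMIs in the whole Mus library, and Ifi27l2a had none in other Mus barcodes. In other barcodes the log2 ratios of Gzma and Ifi27l2a were 7.49 and 7.17. Both genes were far higher in Acomys T cells than in other Acomys barcodes, 648-fold and 244-fold. T cells or T cell RNA among the other barcodes could carry these ratios. They therefore do not show whether the low Mus counts extend beyond T cells. Cd69 had 137 UMIs in 60 Acomys cells and 3 UMIs in 3 Mus cells, a ratio of 55.7 (18.7 to 274), and of 20.5 (6.83 to 101) in cells of at most 5000 UMIs. In other barcodes it was higher in Acomys too, with 63 against 4 UMIs and a log2 ratio of 4.84. Gmfg, an actin regulator of leukocytes, had 340 UMIs in Acomys and 17 UMIs in Mus, a ratio of 24.4 (15 to 42.4), and of 11.1 (6.71 to 19.6) in cells of at most 5000 UMIs, but was also higher in the other barcodes of Acomys, by 3.56 on the log2 scale.

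Lower in Acomys were Cd7, with no UMI in Acomys and 805 UMIs in 48 Mus T cells, at least 220-fold (435-fold in cells of at most 5000 UMIs), and Thy1, a surface glycoprotein of mouse T cells, with 2 UMIs in Acomys and 125 UMIs in 48 Mus T cells, 51.2-fold (13.9 to 428), or 159-fold (27.7 to 6339) in cells of at most 5000 UMIs. The whole Acomys library held 2 UMIs of Cd7 and 831 of Thy1, and in other barcodes Thy1 was lower in Acomys too, at a log2 ratio of -2.12. The actin-binding Avil, the sodium pump subunit Atp1b1, the small GTPase Gem, the regulator Tsc22d1 and the survival gene Bcl2 had no UMI in Acomys T cells and 41 to 57 UMIs in Mus T cells, at least 11.2-fold to 15.6-fold lower, and at least 21.3-fold to 31.6-fold in cells of at most 5000 UMIs. Avil, Gem and Bcl2 had 2, 5 and 6 UMIs in the whole Acomys library. In other barcodes the log2 ratios of Avil, Gem, Tsc22d1 and Bcl2 were -6.70, -6.51, -5.89 and -4.86, so the low counts of Gem, Tsc22d1 and Bcl2 were not limited to T cells. Avil was 138-fold higher in Mus T cells than in other Mus barcodes, so for it this is not shown. Atp1b1 had 304 UMIs in other Acomys barcodes, where its log2 ratio was 0.45. Wfdc21, Klk10 and Krt77, also lower, lay in 4 to 7 Mus cells and are genes of keratinocytes, whose markers were at 30058 CPM in Acomys T cells and 75976 CPM in Mus T cells. The part of keratinocyte RNA in these ratios was not tested.

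Gene lists were described by their members with at least 20 UMIs, without the selection genes. Over all genes tested, 19.9% passed 2-fold upwards in Acomys and 24.2% downwards, or 22.6% and 16.5% in cells of at most 5000 UMIs. The counts of members in this and the next paragraphs are to be set against these shares, and no list was tested. Of the genes of the T cell receptor and its proximal signalling, 13 were measured, of which 6 passed 2-fold upwards in Acomys and 4 downwards, at a median log2 ratio of 0.68, against -0.44 in cells of at most 5000 UMIs. The order of the species thus turned with the depth limit. Lcp2, an adaptor below the receptor (31 against 5 UMIs), Sit1, a receptor-associated adaptor (84 against 15 UMIs), and Cd6, a costimulatory receptor (26 against 0 UMIs), were at least 2-fold higher in both. Cd247, the zeta chain, was lower, with 2 UMIs in Acomys and 77 UMIs in 36 Mus cells, 31.6-fold in all cells and 59.3-fold under the limit. The whole Acomys library held 8 UMIs of Cd247 and the whole Mus library 196, and in other barcodes its log2 ratio was -1.69. Trdc was 3.70-fold lower (127 against 574 UMIs), and 7.46-fold (6.11 to 9.17) under the limit. The adaptor Lat had 116 UMIs in 64 Acomys and 88 UMIs in 35 Mus cells, a ratio of 1.61 (1.21 to 2.15), and Ptprcap, which binds CD45, 190 UMIs in 89 and 161 UMIs in 47 cells, a ratio of 1.44 (1.16 to 1.79). In cells of at most 5000 UMIs both stood below 1, at log2 ratios of -0.44 and -0.59.

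Cytotoxic and natural killer receptor genes split. Of 12 measured, 4 were at least 2-fold higher in Acomys, namely Cd8a, Cd8b1, Gzma and the perforin gene Prf1, and 2 lower, Cd7 and Klrk1. Prf1 had 28 UMIs in 22 Acomys cells and 12 UMIs in 10 Mus cells, and in cells of at most 5000 UMIs its log2 ratio was 0.04. Nkg7 had 330 UMIs in 51 Acomys cells and 422 UMIs in 44 Mus cells, a ratio of 0.954 (0.824 to 1.10), and of 0.438 (0.375 to 0.510) in cells of at most 5000 UMIs. Fcer1g, with 109 UMIs in 27 Acomys cells and 259 UMIs in 40 Mus cells, had a log2 ratio of -0.96, and of -2.06 in cells of at most 5000 UMIs. Under that limit 3 of 11 measured members were at least 2-fold higher and 4 lower, and the median of the list was 0.80 in all cells and -0.40 under the limit.

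Genes of tissue residence and migration did not move together. Of 10 residence genes, 3 passed 2-fold upwards in Acomys and 5 downwards, at a median log2 ratio of -0.91, against -1.91 in cells of at most 5000 UMIs. Cd69 was higher. Fabp4 and Fabp5, which bind fatty acids, were also higher, at 108 and 1095 CPM in Acomys T cells. They lay below the 715 and 3554 CPM of other Acomys barcodes, where their log2 ratios were 2.44 and 1.44. With free RNA subtracted both had the same log2 ratio of -1.63 despite their different levels, so no direction is read from it. Cxcr6 was lower, with 25 UMIs in 18 Acomys cells and 80 UMIs in 36 Mus cells, 2.62-fold, and 5.39-fold (3.32 to 9.07) in cells of at most 5000 UMIs. Itgae, with 22 UMIs in 20 Acomys cells and 37 UMIs in 28 Mus cells, had a ratio of 0.726 (0.408 to 1.26), and of 0.371 (0.203 to 0.667) under that limit. Of 4 recirculation genes, Klf2 was higher (173 against 39 UMIs, a ratio of 5.41, 3.81 to 7.87, and of 2.37, 1.65 to 3.46, under the limit), and Klf3 and Tcf7 were lower, each with 1 UMI in Acomys. Among chemokine and migration receptors, Cx3cr1, the fractalkine receptor (49 against 10 UMIs), was at least 2-fold higher, at a ratio of 5.98, and of 2.86 (1.39 to 6.65) under the limit, and Cxcr6 and Selplg, a ligand of selectins, were lower. The median of that list was 0.84 in all cells and -0.38 in cells of at most 5000 UMIs.

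Cytokine and chemokine genes of T cells were mostly higher in Acomys, 6 of 7, with none at least 2-fold lower and a median log2 ratio of 4.48, against 3.22 and 5 of 7 in cells of at most 5000 UMIs. With members at 0 UMIs in a library set to their bound, the medians were 4.43 and 1.94. The 6 genes were Ccl5, Ccl4, Xcl1, Il17f, Cd40lg and Ltb, a ligand that organises lymphoid tissue, and Il17f, Xcl1 and Ccl4 had most of their UMIs in 1 cell. Xcl1 had 289 UMIs in 19 Acomys cells and 45 UMIs in 11 Mus cells, a ratio of 7.84 (5.71 to 11.0), while in cells of at most 5000 UMIs its log2 ratio was 0.53. The shares of cells with an Xcl1 UMI, 15% in Acomys (9.25 to 22.4) and 15.5% in Mus (8.0 to 26.0), overlapped. Ltb had 213 UMIs in 61 Acomys cells and 95 UMIs in 32 Mus cells, a log2 ratio of 1.45, and of 0.21 in cells of at most 5000 UMIs. Il17a had no UMI in Acomys T cells and 9 UMIs in 2 Mus T cells. No growth factor gene for epithelium reached 20 UMIs, and Areg, which T cells of mouse can make in wounds, was in 0 T cells of either library.

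Helper and regulatory genes were few. Of 6 measured, Cd40lg (27 UMIs in 20 Acomys cells and 1 UMI in Mus) and Tnfrsf4 were higher in Acomys, and Gata3, Capg and Tnfrsf9, the costimulatory receptor 4-1BB, were lower, Tnfrsf9 with 5 UMIs in Acomys and 45 UMIs in 25 Mus cells. Capg and Gata3 were also lower in other Acomys barcodes, at log2 ratios of -5.22 and -2.33. Of 4 inhibitory genes, Lag3 (32 UMIs in 18 Acomys cells and none in Mus), Socs1 and Tox were higher and none lower, whereas in cells of at most 5000 UMIs 2 of the 4 were higher and 1 lower. Of 11 transcription factors, 3 were higher and 4 lower, beside 19.9% and 24.2% of all genes tested. Id3 had 192 UMIs in 45 Acomys cells and 68 UMIs in 20 Mus cells, a ratio of 3.45 (2.60 to 4.61), and of 5.89 (3.53 to 10.5) in cells of at most 5000 UMIs, at a log2 ratio of -0.22 in other barcodes, whereas Runx3 and Tcf7, with 1 UMI each in Acomys, and Gata3 and Stat3 were lower. In other barcodes these 4 were lower too, Runx3 at a log2 ratio of -4.81, Tcf7 at -2.74, Gata3 at -2.33 and Stat3 at -1.44. Of 3 measured genes of the gamma-delta and type 17 program, Il17f was higher, Tmem176b lower and Rora, with 20 against 40 UMIs, in between. Of 4 cytokine receptors, Il12rb1 was higher, and Il2rg, the shared chain of several interleukin receptors (3 against 40 UMIs), and Ifngr1 were lower. Of 11 immediate early genes, Jun and Ier2 were higher and Jund, Zfp36l1, Zfp36l2, Btg1 and Btg2 lower, and Jund, with 1 UMI in Acomys and 156 UMIs in Mus T cells, was as low in other Acomys barcodes, at a log2 ratio of -7.61.

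Genes shared by leukocytes were higher in Acomys in 11 of 18 and lower in 3, at a median log2 ratio of 1.16, against 6 and 5 of 18 and a median of 0.18 in cells of at most 5000 UMIs. The actin regulator Coro1a (287 against 67 UMIs), the GTPase regulator Arhgdib (397 against 88 UMIs), Lcp1 and Srgn were at least 2-fold higher in both. Cd53, Rac2 and Limd2 were lower in both, and Cd52, with 246 UMIs in 79 Acomys cells and 146 UMIs in 47 Mus cells, had a log2 ratio of 1.04, and of -0.04 in cells of at most 5000 UMIs. Of 8 interferon response genes, 5 were higher and none lower, at a median of 1.78, and in cells of at most 5000 UMIs 5 of 7 were higher and 1 lower, at a median of 1.67. Ifitm3, a membrane protein against viral entry, had 737 UMIs in 104 Acomys and 97 UMIs in 22 Mus cells, a ratio of 9.27 (7.49 to 11.6), and of 18.7 (8.95 to 47.1) in cells of at most 5000 UMIs, and in other barcodes its log2 ratio was 3.12. Psmb9, an immunoproteasome subunit, had 89 UMIs in 60 Acomys and 17 UMIs in 15 Mus cells, a ratio of 6.39 (3.77 to 11.5), at a log2 ratio of 1.11 in other barcodes. Cell cycle genes were lower in 5 of 8, at a median of -1.55, a direction that did not hold in cells of at most 5000 UMIs. There 2 members had at least 20 UMIs, of which 1 was higher and none lower, at a median of 0.99, and the median of all 8 was -0.53. Mki67, a marker of dividing cells, had UMIs in 4 Acomys and 5 Mus T cells, which is 3.15% and 7.04%, against 2.43% and 4.94% of Krt10-high barcodes.

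**Figure D4:**
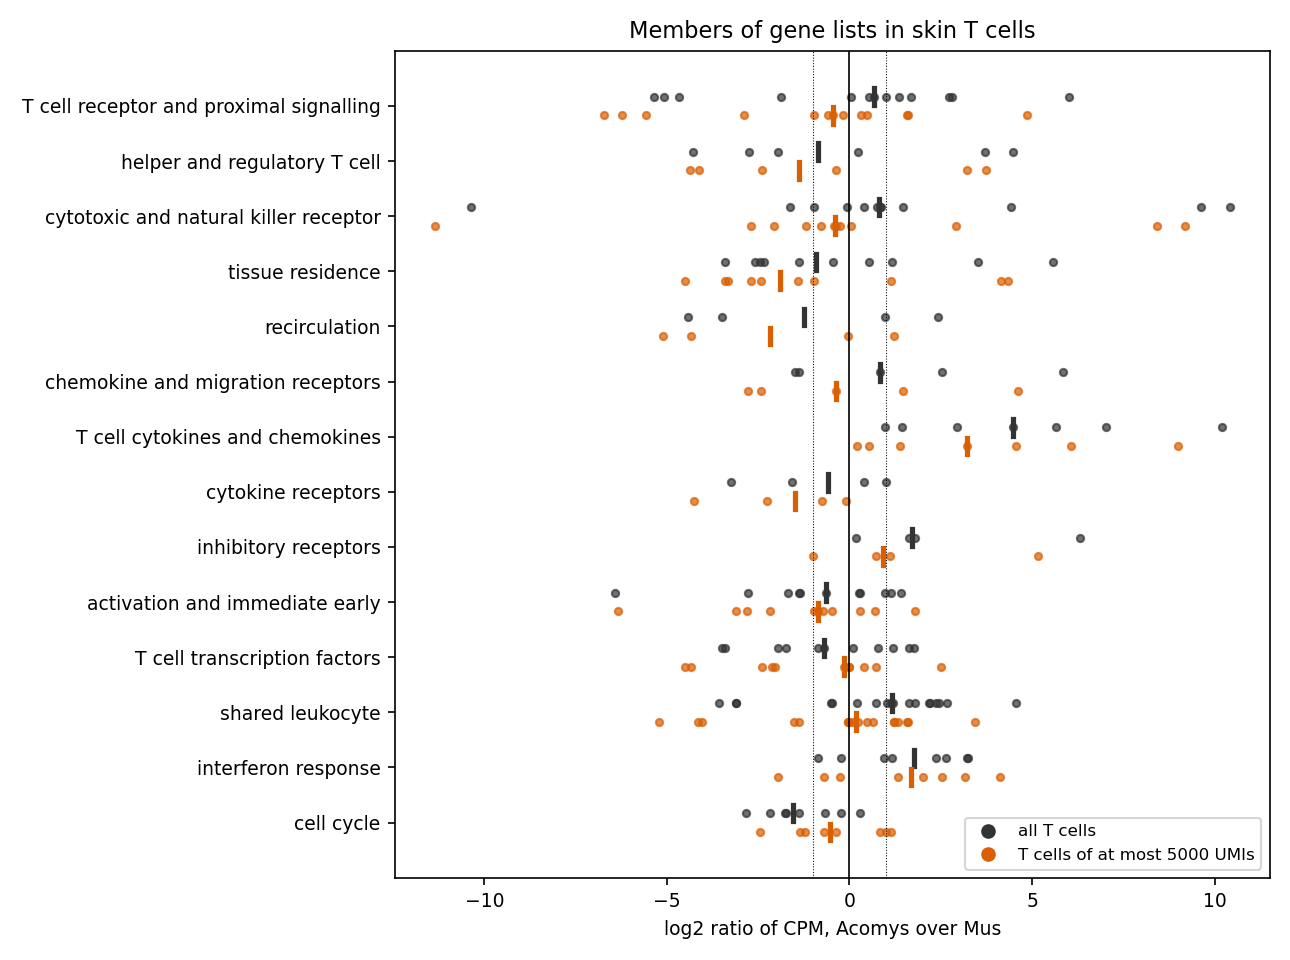
Points are members of each gene list with at least 20 UMIs, at their log2 ratio of CPM, Acomys over Mus, in all T cells (grey) and in T cells of at most 5000 UMIs (orange), with bars at the list medians and dotted lines at 2-fold. The medians of the receptor, cytotoxic and chemokine receptor lists are 0.68, 0.80 and 0.84 in all cells and -0.44, -0.40 and -0.38 under the depth limit, while those of the cytokine list are 4.48 and 3.22.

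The 47 Acomys and 49 Mus T cells with a Trdc UMI were also set side by side, as were the 44 Acomys and 41 Mus cells of them with at most 5000 UMIs, alternatives chosen after the data were seen. They had median depths of 2132 UMIs in Acomys and 2792 UMIs in Mus, and median keratinocyte marker shares of 1.57% and 1.69%. Cells over 5000 UMIs held 18.6% of the UMIs of the Acomys Trdc cells and 60.4% of those of the Mus Trdc cells. Of 1802 genes, 351 passed 2-fold upwards in Acomys (19.5%) and 438 downwards (24.3%), and under the limit 204 of 1044 upwards (19.5%) and 207 downwards (19.8%). Cd69 had 87 UMIs in 33 Acomys cells and 2 UMIs in 2 Mus cells, a ratio of 85.8 (23.0 to 720), and of 33.3 (8.86 to 281) under the limit. Id3 had 168 UMIs in 32 Acomys and 37 UMIs in 11 Mus cells, a ratio of 8.96 (6.24 to 13.2), and of 32.5 (13.6 to 101) under the limit. Both genes were thus higher in Acomys in either set, but Cd69 was also higher in other Acomys barcodes, at a log2 ratio of 4.84. Xcl1 was 11.9-fold higher (8.64 to 16.7), with 181 of the 271 Acomys UMIs in 1 cell of over 5000 UMIs, and 2.36-fold (1.60 to 3.55) under the limit. Lgals1, a secreted galectin, was 5.28-fold higher (4.58 to 6.11), and 3.10-fold (2.66 to 3.63) under the limit. Cd7 had no UMI in the Acomys cells and 797 UMIs in the Mus cells, and Cd247 (2 against 71 UMIs), Tnfrsf9 (2 against 45 UMIs) and Cd2, an adhesion receptor (2 against 43 UMIs), were lower in both sets. The whole Acomys library held just 2 UMIs of Cd7 and 8 UMIs of Cd247. Cxcr6 was 3.08-fold lower (1.70 to 6.04), and 6.04-fold (3.17 to 12.7) under the limit. The genes nearer to equal depended on the deep cells, and Nkg7 and Fcer1g also on the class. Nkg7 had a ratio of 0.784 (0.651 to 0.941) in all Trdc cells and of 0.410 (0.338 to 0.497) under the limit, and Fcer1g of 0.744 (0.581 to 0.945) and 0.403 (0.313 to 0.516). The 21 Acomys cells with both Trdc and Cd8a, included here, had no UMI of either gene. Without the depth limit, Nkg7 stood at 2806 CPM in the 26 Acomys cells with Trdc alone and 1922 CPM in Mus Trdc cells. Fcer1g stood at 1616 and 1167 CPM, so for these cells both genes were higher in Acomys. Ptprcap had a ratio of 0.986 (0.733 to 1.32) in all Trdc cells and of 0.531 (0.391 to 0.716) under the limit, and Itgae of 0.789 (0.392 to 1.5) and 0.487 (0.238 to 0.951).

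Markers of other cell types were counted in the T cells, and their part in the results was not tested. Keratinocyte markers took a median of 1.79% of UMIs per T cell in Acomys and 2.45% in Mus, against 4.63% and 5.16% in the other passing barcodes. Csf1r, C1qa, C1qb, C1qc, Adgre1 and Flt3, of macrophages and dendritic cells, and Cd79b, Ms4a1 and Pax5, of B cells, had no UMI in the T cells of either library. Other members of these lists did, with Cd68 at 12 UMIs in 11 Mus T cells (46.2 CPM, against 4.2 CPM in other Mus barcodes) and Cd79a at 1 UMI in Acomys T cells and 9 UMIs in 6 Mus T cells (34.7 CPM, against 0.455 CPM in other Mus barcodes). Eomes, of natural killer cells, had no UMI in T cells or other passing barcodes of either library. It thus cannot tell natural killer cells apart. The natural killer and innate lymphoid cell list was higher in T cells than in other barcodes. Its CPM were 235 against 80.5 for Acomys and 416 against 351 for Mus. Of this list, Il7r had 26 UMIs in 21 Acomys T cells and 24 UMIs in 10 Mus T cells. Gata3 in Mus was lower in T cells, 297 against 332 CPM. Whether natural killer or innate lymphoid cells were among the T cells was not tested. The macrophage and dendritic cell list stood at 606 CPM in Acomys T cells, all of it Cd74, and at 108 CPM in Mus T cells. Hair follicle markers stood at 7015 CPM in Acomys T cells and 1394 CPM in Mus T cells, close to the 6254 CPM and 1362 CPM of the other barcodes.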

How the data were processed

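The authors deposited 1 matrix of raw UMI counts per gene and barcode for each library, which holds every barcode with no cell filter. The counts were made with Cell Ranger 2.2.0, and the build named is mm10 for both libraries, per the submitters' processing notes. What annotation the Acomys gene list comes from was not stated in the labels or files. T cells, gene lists and named genes were chosen with earlier results of these data known. UMIs were summed over T cells per library with Python 3.11.15, numpy 2.4.6 and pandas 2.3.3. Ratios of CPM over shared symbols carry exact conditional binomial intervals, and shares exact Clopper-Pearson intervals, at 95% (scipy 1.17.1). Log2 ratios used a prior of 0.5 counts. A ratio against no UMI is a lower bound from 3 counts. A gene counted as called at 2-fold with at least 10 UMIs in the higher library. Named genes were the 15 leading genes of T cells in each library and the 10 highest and 10 lowest ratios between the species, both by the interval bound nearest 1, list members of highest level or at least 4-fold apart, and the genes of the detection shares, without ribosomal, mitochondrial and histone genes and identifiers alone. Exceptions are stated where they occur. No doublet caller was run. The calculation was tested on simulated data. Both libraries carry replicate number 1 by naming alone. A small number of genes of the lists and of the detection shares are not reported here.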

Additional observations from a re-analysis of the deposited data

Results flagged for a closer look

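Signals of T cells also lay in barcodes below the UMI minimum, which the comparisons did not use. In Acomys 55 barcodes under 500 UMIs had at least 2 UMIs of the Cd3 genes, and in Mus 59 did. They had a median of 295 UMIs in Acomys and 290 UMIs in Mus, and carried 8 and 40 UMIs of Trdc and 20 and 0 UMIs of Cd8a. The Krt10 limit of the selection, less than 2% of UMIs, was met by 24 of the 55 Acomys and 51 of the 59 Mus barcodes. By that limit the order of the species was thus the reverse of the T cell share. The T cells held 50.2% of all Cd3 UMIs of the Acomys library and 43.7% of those of the Mus library.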

How the results depend on the processing

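No paired analysis was possible because each species has 1 library, and leaving out a library in turn was not possible for the same reason. The T cell share was higher in Acomys than in Mus in each alternative run: 1.45% and 0.593% with at least 1000 UMIs, and 0.586% and 0.209% with keratinocyte markers under 2%. It was 0.352% in Mus with 3 Cd3 UMIs and 0.358% with T cells of at most 5000 UMIs, and 1.18% in Acomys without a Krt10 limit. Genes at least 2-fold higher and lower numbered 382 and 262 with keratinocyte markers under 2%, 416 and 303 with cells of at most 5000 UMIs, 351 and 438 in Trdc cells, and 204 and 207 in Trdc cells of at most 5000 UMIs, with fewer genes tested in each. The lower ones were 459 with 3 Cd3 UMIs, and 1517 were higher with free RNA subtracted, which removed 46.0% of UMIs in Acomys and 96.4% in Mus. The numbers of genes tested in these alternatives are not given here, so both counts cannot be read as shares. Of 100 measured named genes and list members, 0 to 8 reversed per alternative, and 82 moved with free RNA subtracted, 58 with keratinocyte markers under 2%, 49 with cells of at most 5000 UMIs, 34 with per-cell means, 31 in Trdc cells under that limit and 0 to 11 in each of the others. With keratinocyte markers under 2%, the log2 ratios were -0.35 for Cd52, -0.28 for Ltb and -0.48 for Skap1, and list medians 0.13 for recirculation, -0.26 for shared leukocyte and 1.5 for cell cycle genes. With cells of at most 5000 UMIs they were -0.040 for Cd52, -0.096 for Il12rb1 and -0.18 for Skap1. In that alternative, where members were taken anew at 20 UMIs, the medians were 0.59 for recirculation and 0.99 for cell cycle genes. With free RNA subtracted they were -0.73 for Cd52, -1.63 for Fabp4 and Fabp5, 2.07 for Gata3, -0.88 for Il12rb1, -0.40 for Ltb, -0.92 for Skap1 and -0.087 for Tox, and -0.30 for the shared leukocyte median. With 96.4% of Mus UMIs removed, no direction is read from any value with free RNA subtracted, among them the one that Fabp4 and Fabp5 shared. These genes are still in the count of reversed genes. The recirculation median, over 2 genes in each of these alternatives, was 0.84 with 3 Cd3 UMIs and 1.54 in Trdc cells. In Trdc cells of at most 5000 UMIs the ratio of Cd52 was -0.26, and the medians were 0.75 for recirculation, -0.036 for inhibitory and 0.88 for cell cycle genes. Their causes were not tested. The limit of 5000 UMIs and the Trdc cells were chosen after seeing the data.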
